A study of Homo sapiens with 32 samples.

Results

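FOXO1, FOXO3, FOXO4, IRS1, IRS2, CCNG2, PIK3IP1, KLHL24, BCL6 and SESN3 are 3 of the FOXO transcription factors and a set of genes known as FOXO targets whose transcription growth factors lower. They were taken by gene name, and all 10 were found among the 57773 annotated genes in the counts after 6 h and after 24 h. The cells were HEK293, an established human embryonic kidney line, transiently transfected with the human angiotensin II receptor AT1R from a plasmid with a viral (CMV) promoter, so that cells with and without the receptor shared a dish. All groups were moved to serum-free medium and then left without stimulus (control) or given AII, the peptide hormone angiotensin II (1 nmol/l), EGF, the epidermal growth factor (10 µg/l), or AII+EGF. The 6 h experiment has 16 libraries, 4 per condition. The 24 h experiment has 15, with 3 for AII+EGF and 4 for each other condition. The labels do not say whether the libraries of a condition came from separate cultures, so that p-values measure the spread between these libraries, which may be technical.

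As background, EGF binds its receptor EGFR, which activates phosphoinositide 3-kinase (PI3K) and the kinase AKT. AKT phosphorylates FOXO factors in the nucleus, 14-3-3 proteins bind them, and they leave for the cytoplasm, so that the genes they activate are transcribed less. Many of these targets act back on the same route: IRS1 and IRS2 are adaptors that couple the insulin and IGF receptors to PI3K, PIK3IP1 is a membrane protein that inhibits PI3K, and SESN3 is a sestrin, which restrains the kinase mTORC1. AT1R couples to Gq proteins and can transactivate EGFR in some cell types. The authors report that HEK293 cells cannot do this, most probably because they express little of the EGFR ligand HB-EGF.

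FOXO factors bind a forkhead motif with the letters GTAAACA, and the insulin response element of classical targets carries CAAAACA. Both strands of the RefSeq promoter windows (GRCh38.p14, 250 bases before to 50 after an annotated start) were searched for these letters; the motifs do not overlap each other in the windows shown. All 10 genes matched a window. GTAAACA was present in a window of 2 of the 10 genes (FOXO4 and PIK3IP1), in 4.19% of all 27305 genes with a window and in 3.42% of all 35116 windows. CAAAACA was present in 2 (KLHL24 and IRS2), in 6.05% of all genes and in 4.92% of all windows. The windows of FOXO4 and KLHL24 are printed to 30 bases after the start, because these genes were lower with AII+EGF, and 30 bases are printed around the motifs of IRS2 and PIK3IP1 for comparison. Capitals mark the motif, which reads as its reverse complement in all but FOXO4.
FOXO4, chrX:71095601-71095880, plus strand: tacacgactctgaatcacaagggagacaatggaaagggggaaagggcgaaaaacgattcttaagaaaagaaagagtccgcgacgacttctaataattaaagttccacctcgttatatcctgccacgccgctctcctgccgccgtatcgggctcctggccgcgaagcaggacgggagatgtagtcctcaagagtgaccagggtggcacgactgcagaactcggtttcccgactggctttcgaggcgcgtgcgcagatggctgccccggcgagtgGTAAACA
KLHL24, chr3:183635373-183635652, plus strand: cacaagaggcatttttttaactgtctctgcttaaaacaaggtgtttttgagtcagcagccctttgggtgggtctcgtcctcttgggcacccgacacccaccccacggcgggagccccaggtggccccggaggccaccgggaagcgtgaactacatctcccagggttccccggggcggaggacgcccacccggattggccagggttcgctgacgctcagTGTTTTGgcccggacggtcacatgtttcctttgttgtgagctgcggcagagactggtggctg
IRS2, chr13:109786606-109786635, minus strand: cgagtcacatgtTGTTTTGctcttcttagt
PIK3IP1, second annotated start, chr22:31292455-31292484, minus strand: ctaaagagaggcTGTTTACcagaacagcat
In FOXO4 the motif lies from 24 to 30 bases after the start, in KLHL24 from 32 to 26 bases before it, in IRS2 from 40 to 34 bases before it and in PIK3IP1 from 17 to 23 bases after the second start. A match of letters is a description of the sequence and not a binding site. No match was present in the windows of FOXO1, FOXO3, IRS1, CCNG2, BCL6 and SESN3 or in that of the first start of PIK3IP1.

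Libraries held 3881841 to 8540815 counts at the early time (6 h) and 6646227 to 33070903 at the late time (24 h), but the share of counts on protein-coding genes was 81.4% to 84.7% at the early and 20.8% to 63.4% at the late time, at which U1 small nuclear RNA had 8.90% to 57.2%. The spread between replicate libraries, as a biological coefficient of variation, was 10.6% after 6 h and 29.1% after 24 h. The transfected gene AGTR1 was counted in every library, at 950.1 to 1191 FPM in control after 6 h. Its level with AII+EGF was 1497 FPM on average (log2 fold change 0.45, FDR 0.000498), and it stood at 1388 FPM with AII and 1097 FPM with EGF. EGR1, an immediate early gene, rose with EGF from 2.25 to 51.5 FPM after 6 h. Of 10 HEK293 markers all had more than 3 counts in a control library after 6 h. Their summed level was 1194 to 1325 FPM in control and 1442 to 1619 FPM with AII+EGF. Most of the sum came from NEFL, NEFM and VIM, at means of 457, 443 and 312 FPM in control. The other markers had low control means, from 0.58 FPM (PAX2) to 9.95 FPM (KRT8). NEFM rose in both EGF groups, to a mean of 737 FPM with AII+EGF, and KRT18 rose with AII+EGF. Of the markers of other cells, 1 of 4 tested proximal tubule genes passed the test after 6 h (CUBN, lower in both EGF groups). Among all tested genes 5.97% passed with EGF and 6.10% with AII+EGF. Of the smooth muscle genes 0 of 4 passed and of the blood genes 0 of 1, with HBB and PTPRC at no more than 3 counts in any 6 h library. The part of these shifts in the results below was not tested.

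FPM, the unit of the levels, is the count of a gene scaled to a common library size after TMM normalisation (edgeR's cpm). Per kilobase of exon (FPKM, from the GRCh37 gene annotation), the control level after 6 h was highest for FOXO3 (33.6 ± 1.00, mean ± SD, n = 4) and IRS2 (28.4 ± 2.02), followed by SESN3 (21.98 ± 2.40). KLHL24 (8.12 ± 0.937) and FOXO1 (6.08 ± 0.623) came next. CCNG2 (4.45 ± 0.756) and FOXO4 (4.33 ± 0.285) overlapped and could not be ordered. PIK3IP1 (2.53 ± 0.256) was lower, and IRS1 (1.51 ± 0.427) and BCL6 (1.07 ± 0.175) overlapped at the bottom. The exon lengths are from a GENCODE release, whereas the authors name an Ensembl release for their annotation. The exons that were counted may differ from these, and the order of the levels with them. FOXO6, a FOXO factor that is not a member, had a mean of 2.84 FPM in control. Of the FOXO members, FOXO3 thus had the most abundant transcript. But FOXO3 has a near-identical copy, FOXO3B, which was counted at 49.0 to 55.5 FPM in the same control libraries, so that the split of reads between them is uncertain. The same holds to a smaller extent for FOXO1 and its copy FOXO1B, at a mean of 1.19 FPM. Antisense genes in the count table share 36 exon bases with PIK3IP1, 171 with BCL6 and 98 with SESN3, and the strand setting of the counting is not given in the sources used here.

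In GRCh37 coordinates, FOXO1 is at chr13:41129804-41240778 (minus strand), FOXO3 at chr6:108881038-109005977 (plus) and FOXO4 at chrX:70315701-70323382 (plus). IRS1 is at chr2:227596028-227664536 (minus), IRS2 at chr13:110405042-110438930 (minus), CCNG2 at chr4:78078360-78354542 (plus) and PIK3IP1 at chr22:31677580-31688520 (minus). KLHL24 is at chr3:183353398-183402307 (plus), BCL6 at chr3:187439165-187463513 (minus) and SESN3 at chr11:94898677-94965705 (minus).

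After 6 h, at an FDR under 0.05, EGF lowered FOXO4, and AII+EGF lowered FOXO4 and KLHL24 and raised IRS1. Each of these results missed the threshold when certain single libraries were left out, as given below. The estimate of PIK3IP1 with EGF (-0.51) was close to that of FOXO4 (-0.52). Of the other members, PIK3IP1 and SESN3 came near the threshold, and FOXO1, FOXO3, IRS2, CCNG2 and BCL6 did not pass the test in any comparison with control. A gene was called when its FDR was under 0.05, it differed by more than 1.5-fold and its mean exceeded 5 FPM. By this rule 0 of 10 members were called with EGF and 1 with AII+EGF (FOXO4), against 1.73% and 1.95% of all 18618 tested genes. With the FDR alone, in edgeR's quasi-likelihood test, 1 of 10 passed with EGF against 5.97% of all genes, and 3 of 10 with AII+EGF against 6.10%. DESeq2 passed 1 member with EGF, against 7.40% of all genes, and 4 with AII+EGF, against 7.05%. At an unadjusted p under 0.05 there were 5 members with EGF and 5 with AII+EGF, against 20.2% and 18.9% of all genes. The median log2 fold change of the members was -0.16 with EGF and -0.13 with AII+EGF, beside -0.01 and -0.01 over all tested genes. Bulk RNA cannot tell fewer cells with a transcript from less transcript per cell.

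**Figure D1:**
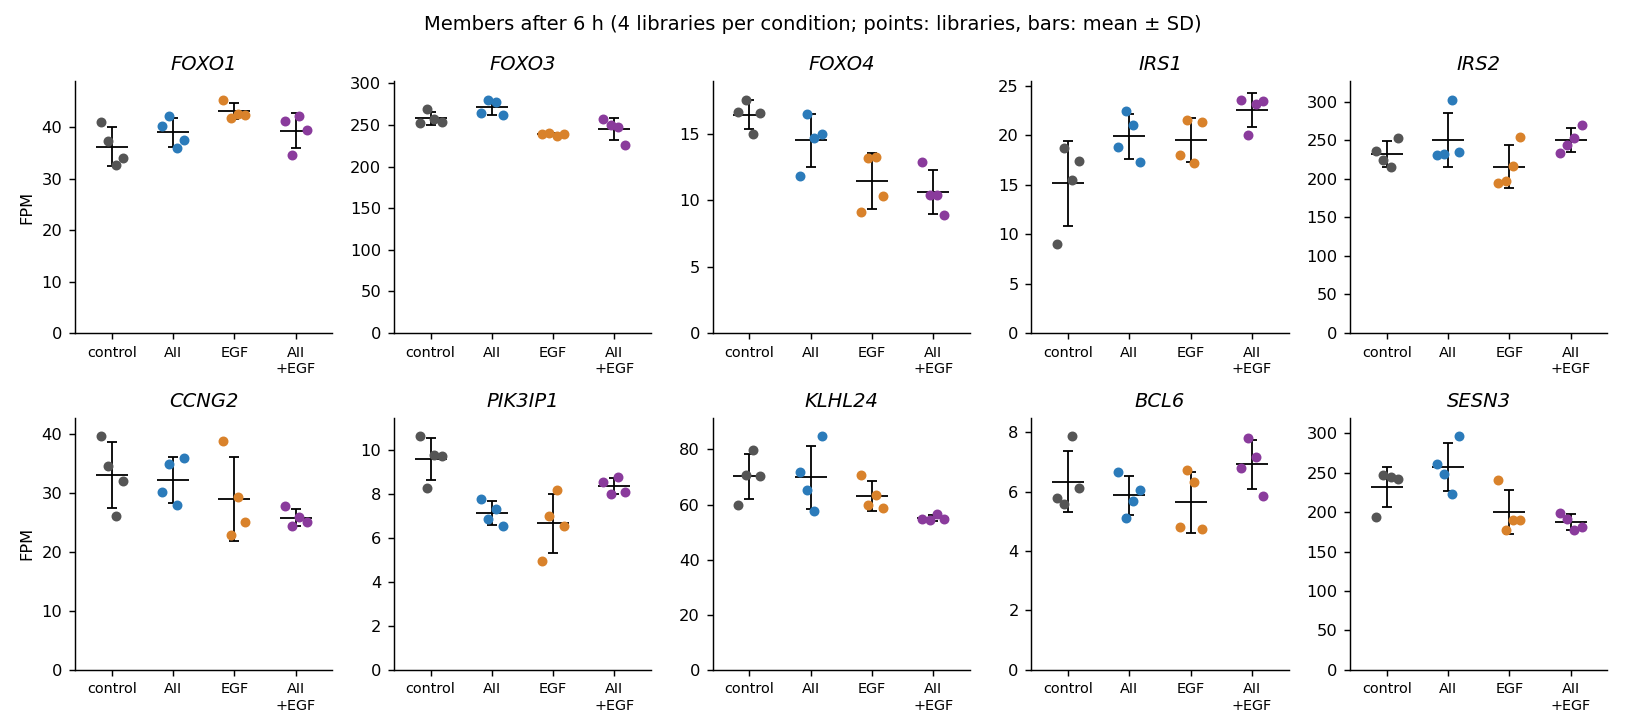
Level of each member in FPM (vertical axes, from 0) in the 4 libraries of each condition after 6 h, with points for libraries and bars for mean ± SD. The EGF and AII+EGF libraries of FOXO4 all lie below the control libraries, and the 4 AII+EGF libraries of KLHL24 lie between 54.3 and 56.5 FPM, below every control library.

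FOXO4, the least abundant of the 3 FOXO members per kilobase of exon in control after 6 h, had 16.7, 17.5, 14.9 and 16.5 FPM in the control libraries after 6 h. With EGF it had 9.07, 13.1, 13.3 and 10.3 FPM, and with AII+EGF 12.9, 10.4, 10.4 and 8.87 FPM. All 8 libraries with EGF were below all 4 control libraries. The level fell by 0.52 on the log2 scale with EGF (SE 0.15, FDR 0.0382), to 69.7% of control, and by 0.63 with AII+EGF (SE 0.15, FDR 0.0129), to 64.7%. With AII alone it was 11.8, 16.5, 14.7 and 14.96 FPM, a range that overlapped control (log2 fold change -0.18, 95% confidence interval -0.49 to 0.13). These values rest on 53 to 110 counts per library. Within the 2 series of library numbers in the labels, AII+EGF lay 0.53 and 0.66 below control on the log2(FPM + 1) scale, and EGF 0.60 and 0.40 below. The AII+EGF result missed the threshold without AII+EGF replicate 4 (log2 fold change -0.55, FDR 0.063), and the EGF result without control replicate 1, 2 or 4, EGF replicate 1 or 4 or AII+EGF replicate 2 (FDR 0.052 to 0.136).

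FOXO1, which drives gluconeogenic and cell cycle inhibitor genes in many tissues, had 40.9, 37.3, 32.6 and 34.1 FPM in control and 45.3, 41.8, 42.6 and 42.4 FPM with EGF after 6 h. The EGF libraries were all above control, but the difference did not pass the test (log2 fold change 0.25, SE 0.09, FDR 0.110). With AII+EGF, at 41.3, 34.5, 42.2 and 39.4 FPM, the groups overlapped (0.12, FDR 0.516). Within the library series this difference was -0.05 in the first and 0.28 in the second. FOXO3 had 252 to 269 FPM in control, 236 to 240 FPM with EGF and 226 to 257 FPM with AII+EGF. The EGF libraries were all below control, by a small amount. Its log2 fold change was -0.11 with EGF (95% confidence interval -0.24 to 0.01) and -0.07 with AII+EGF (-0.20 to 0.05), the narrowest intervals among the members. FOXO4 thus had the lowest point estimate of the 3 factors in both EGF groups, and whether the factors differ from each other in their response was not tested.

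IRS1, the adaptor downstream of the insulin and IGF-1 receptors, moved the opposite way. It had 9.02, 18.7, 15.5 and 17.4 FPM in control and 23.6, 19.98, 23.1 and 23.5 FPM with AII+EGF after 6 h. Every AII+EGF library was above every control library, 1 of which stood apart at the bottom, and the level rose to 149% of control (log2 fold change 0.55, SE 0.15, FDR 0.0327). With EGF alone (17.96, 21.5, 17.2 and 21.3 FPM) and AII alone (18.8, 22.4, 21.01 and 17.3 FPM) the libraries overlapped control, at log2 fold changes of 0.35 (FDR 0.210) and 0.38 (FDR 0.987). The AII+EGF difference was 0.69 and 0.48 in the 2 library series. It did not pass without control replicate 1 (log2 fold change 0.40, FDR 0.0657), control replicate 3 (0.55, FDR 0.0635) or AII+EGF replicate 1, 3 or 4 (0.53 to 0.54, FDR 0.0762 to 0.0825).

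IRS2, the other widely used adaptor of this family and a classical FOXO target, did not pass the test in either EGF group. Whether IRS1 and IRS2 differ in their response was not tested. It had 215 to 253 FPM in control, 195 to 255 FPM with EGF and 233 to 270 FPM with AII+EGF. The log2 fold change was -0.10 with EGF (95% confidence interval -0.30 to 0.09) and 0.11 with AII+EGF (-0.09 to 0.30), and the ranges overlapped throughout.

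KLHL24, a substrate adaptor of a cullin-3 ubiquitin ligase, had 59.9, 70.8, 79.7 and 70.5 FPM in control after 6 h. The AII+EGF libraries lay close together at 54.7, 54.3, 56.5 and 54.6 FPM, below all control libraries, and the level fell by 0.35 on the log2 scale (SE 0.10, FDR 0.0400), to 78.4% of control. With EGF alone it had 70.8, 59.8, 63.4 and 58.7 FPM, which overlapped control (-0.16, FDR 0.409). In the 2 library series the AII+EGF difference was -0.25 and -0.43, and the EGF difference -0.0015 and -0.29. The AII+EGF result stood close to the threshold and missed it, with an FDR of 0.0509 to 0.147, without control replicate 2, 3 or 4, EGF replicate 2 or 3, AII replicate 2 or any of AII+EGF replicates 1 to 4. Without control replicate 3 the log2 fold change was -0.29.

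SESN3 had 195, 247, 245 and 243 FPM in control, 241, 178, 190 and 190 FPM with EGF and 199, 192, 177 and 182 FPM with AII+EGF after 6 h. The lowest control library and the highest EGF library made the groups overlap, and AII+EGF missed the threshold against control (log2 fold change -0.31, SE 0.10, FDR 0.0576). It passed with DESeq2 (FDR 0.0337), without the filter on low counts (FDR 0.0216), among protein-coding genes only (FDR 0.0266) and without control replicate 1 (log2 fold change -0.38, FDR 0.0112), EGF replicate 1 (FDR 0.0322), AII replicate 3 (FDR 0.0439) or AII replicate 4 (FDR 0.0416). CCNG2, an unconventional cyclin linked to cell cycle arrest, had 39.6, 34.5, 26.1 and 31.9 FPM in control and 27.7, 24.3, 25.9 and 25.1 FPM with AII+EGF. The groups overlapped at the lowest control library, and the log2 fold change of -0.35 (SE 0.14) did not pass (FDR 0.167).

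PIK3IP1, the PI3K inhibitor, showed another order of the groups. It had 10.6, 8.29, 9.77 and 9.76 FPM in control, 7.80, 6.88, 7.34 and 6.56 FPM with AII and 4.96, 7.02, 8.21 and 6.55 FPM with EGF after 6 h. With AII+EGF it had 8.58, 7.99, 8.79 and 8.12 FPM, which overlapped control at its lowest library and lay above every AII library. All AII and all EGF libraries were below control, but neither difference passed over all genes (AII log2 fold change -0.42, SE 0.17, FDR 0.987; EGF -0.51, SE 0.16, FDR 0.0668). The EGF difference passed without EGF replicate 3 (-0.62, FDR 0.0468) and among protein-coding genes only (FDR 0.0455). The libraries held 25 to 60 counts of this gene, so that counting error alone is large. BCL6, a transcriptional repressor, had 5.58 to 7.86 FPM in control, 4.73 to 6.72 FPM with EGF and 5.87 to 7.81 FPM with AII+EGF, and its 95% confidence interval against control reached from -0.56 to 0.23 with EGF and from -0.27 to 0.51 with AII+EGF.

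AII alone changed 0 of 10 members after 6 h in edgeR's test (0% of all tested genes at an FDR under 0.05), with 2 members at an unadjusted p under 0.05 against 4.54% of all genes, and 0 in DESeq2 (0% of all genes). These 2 were IRS1 and PIK3IP1. AII+EGF set against EGF alone, which asks whether AII adds to EGF, passed 0 members (0% of all genes) in edgeR and 0 in DESeq2 (0.00537%). At an unadjusted p under 0.05 it gave 1 member, IRS2 (log2 fold change 0.21, SE 0.09), against 7.26% of all genes. KLHL24 was the member whose AII+EGF libraries were all below the EGF libraries after 6 h (log2 fold change -0.20, 95% confidence interval -0.41 to 0.01, FDR 0.683). Its exact two-sided permutation test on log2(FPM + 1) gave p = 0.0286, the smallest that 4 against 4 libraries allow, as 1 of 10 such tests. This value follows from the full separation of the groups and adds nothing to it.

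Against AII alone, AII+EGF lowered SESN3 after 6 h. The AII libraries had 261, 249, 223 and 296 FPM of SESN3, all above the AII+EGF libraries, and the level fell by 0.46 on the log2 scale (SE 0.10, FDR 0.00480). The difference was -0.38 and -0.52 in the 2 library series and passed with each library left out (FDR 0.00121 to 0.0253). It was 1 of 10 members that passed, against 5.93% of all genes, while DESeq2 passed 2 (SESN3 and KLHL24, the latter with an FDR of 0.0346), against 7.02% of all genes. At an unadjusted p under 0.05 there were 5 members, all lower, against 19.6% of all genes. Beside SESN3 these were FOXO3 (-0.15), FOXO4 (-0.45), CCNG2 (-0.32) and KLHL24 (-0.33). This comparison shares its AII+EGF libraries with the comparison with control.

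The interaction, the log2 effect of both ligands less the log2 effects of each alone, passed for 0 of 10 members after 6 h in edgeR (0% of all genes) and for 0 in DESeq2 (0.00537%). PIK3IP1 was the 1 member at an unadjusted p under 0.05, against 8.01% of all genes. Its interaction was 0.74 (SE 0.24, 95% confidence interval 0.25 to 1.22, unadjusted p = 0.00473), with an FDR of 0.592. The level with both ligands was thus above what the sum of the separate differences gives, without passing the test over all genes.

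**Figure D2:**
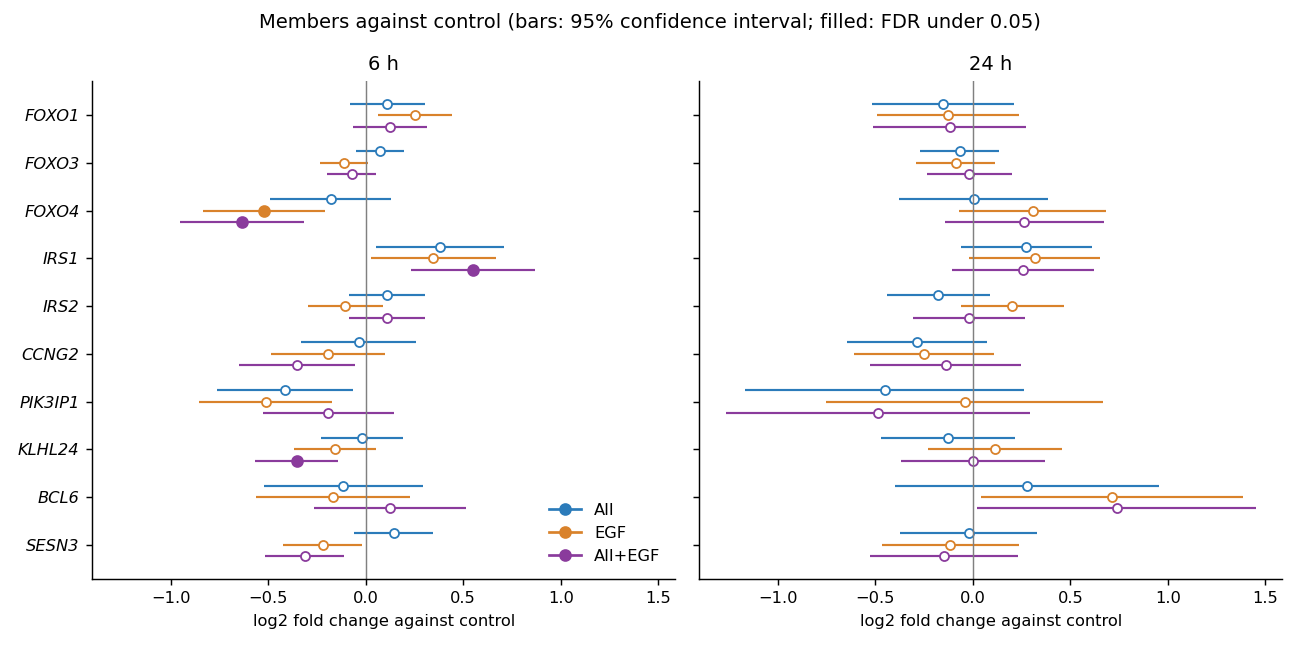
Log2 fold change of each member against control with AII, EGF and AII+EGF (horizontal axis) after 6 h (left) and 24 h (right), with 95% confidence intervals as bars and filled points for an FDR under 0.05. Filled points are FOXO4 with EGF and FOXO4, IRS1 and KLHL24 with AII+EGF after 6 h, and no point is filled after 24 h.

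After 24 h none of the differences seen after 6 h passed the test. In edgeR, 0 of 10 members passed in each of the 6 comparisons, and 0 in DESeq2. In edgeR this compares with few genes in all: 0% of 22174 tested genes with AII, 0.0316% with EGF, 0.0271% with AII+EGF, 0% for AII+EGF against EGF, 0.0451% for AII+EGF against AII and 0% for the interaction. In DESeq2 the shares of all genes were 0%, 0.446%, 0.225%, 0%, 0.198% and 0% in the same order. At an unadjusted p under 0.05 there was 1 member with EGF and 1 with AII+EGF (BCL6 in both), against 8.48% and 5.40% of all genes. For AII, AII+EGF against EGF, AII+EGF against AII and the interaction there were 0, against 2.49%, 3.37%, 4.28% and 2.37%. Levels in FPM were normalised separately at each time and are not compared between times.

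FOXO4 had 12.8, 14.9, 16.7 and 16.03 FPM in control and 14.2, 17.8, 19.2 and 23.5 FPM with EGF after 24 h. The 3 AII+EGF libraries had 14.6, 17.7 and 22.2 FPM. The groups overlapped, and the log2 fold changes were above 0 (EGF 0.31, 95% confidence interval -0.07 to 0.69; AII+EGF 0.26, -0.14 to 0.67). In a joint fit of both times, the FOXO4 effect after 24 h was above that after 6 h by 0.82 with EGF (SE 0.24, unadjusted p = 0.00157 in edgeR's quasi-likelihood test, FDR 0.177) and by 0.88 with AII+EGF (SE 0.25, unadjusted p = 0.00126, FDR 0.228). Neither difference passed, and over the fits with 1 library left out the FDR was 0.138 to 0.373 and 0.128 to 0.559. Of the members, 0 passed this test of the time difference for EGF (0.173% of 21932 genes) and 0 for AII+EGF (0.123%) in edgeR, and 0 for both in DESeq2 (0.515% and 0.310% of all genes). At an unadjusted p under 0.05 they were FOXO4 and BCL6 for EGF and FOXO4 for AII+EGF, against 10.1% and 7.49% of all genes.

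**Figure D3:**
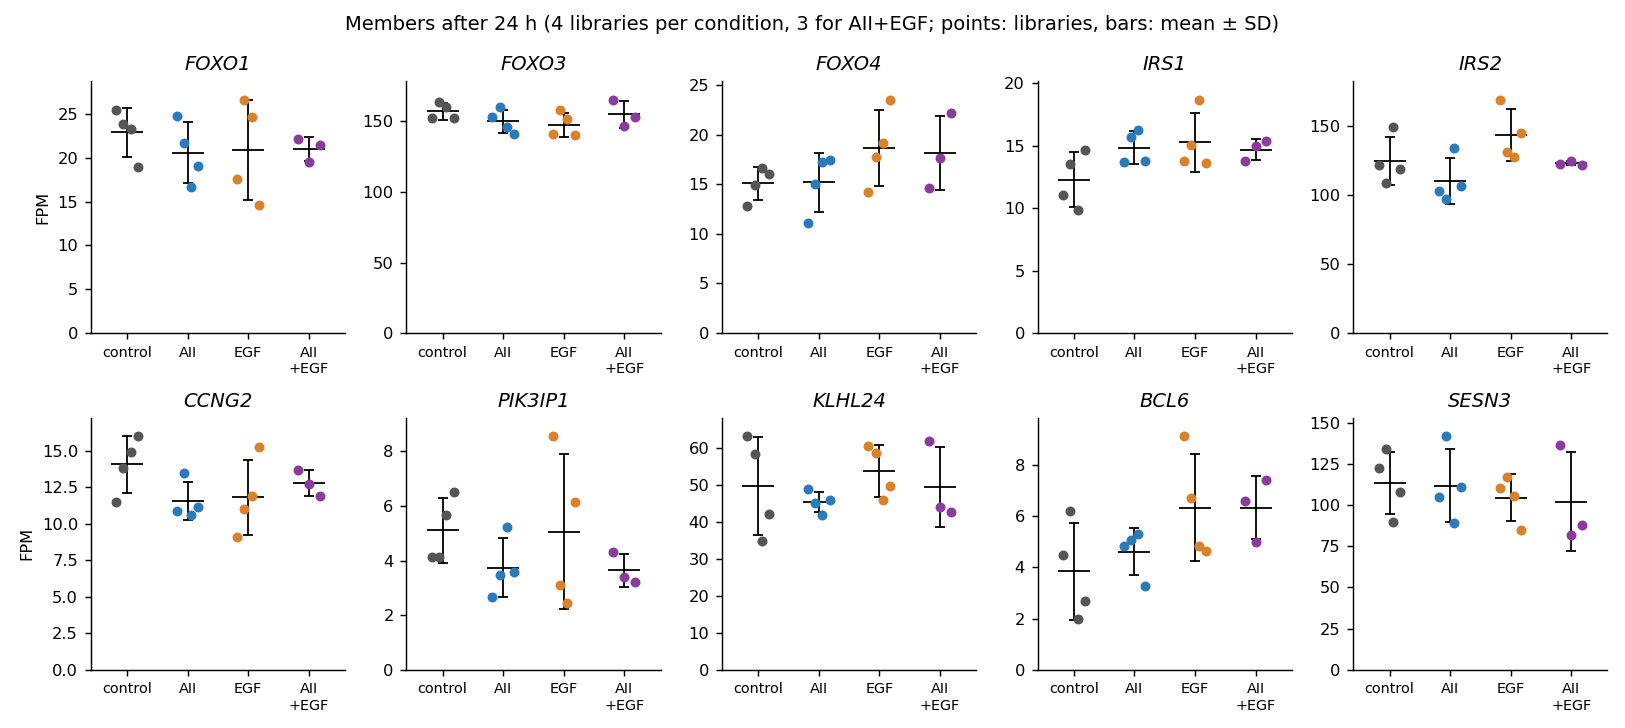
Level of each member in FPM (vertical axes, from 0) after 24 h in 4 libraries per condition (3 for AII+EGF), with points for libraries and bars for mean ± SD. The conditions overlap in nearly every panel, as for FOXO4, where control lies between 12.8 and 16.7 FPM and EGF between 14.2 and 23.5 FPM.

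BCL6 had 4.48, 6.22, 1.96 and 2.70 FPM in control after 24 h, 9.12, 6.73, 4.84 and 4.64 FPM with EGF and 6.62, 4.98 and 7.40 FPM with AII+EGF. The control libraries themselves spread over a wide range and overlapped both groups, with those of the first library series above those of the second. Within the 2 series, EGF lay 0.49 and 0.79 above control on the log2(FPM + 1) scale. AII+EGF lay 0.28 and 1.10 above, from 1 and 2 AII+EGF libraries. The log2 fold change was 0.71 with EGF (SE 0.32, FDR 0.557) and 0.74 with AII+EGF (SE 0.34, FDR 0.918). For IRS1 the estimates after 24 h (EGF 0.32, 95% confidence interval -0.02 to 0.65; AII+EGF 0.26, -0.11 to 0.62) were on the same side as after 6 h. KLHL24 had 63.1, 58.3, 34.9 and 42.2 FPM in control and 61.8, 43.9 and 42.5 FPM with AII+EGF, a log2 fold change of 0.00 with a 95% confidence interval from -0.37 to 0.37. SESN3 had 122, 134, 89.7 and 108 FPM in control and 137, 81.7 and 88.1 FPM with AII+EGF (-0.15, -0.53 to 0.23). The first library series held 1 of the AII+EGF libraries and the second 2. Within the series the AII+EGF difference on the log2(FPM + 1) scale was 0.09 and -0.21 for SESN3, and 0.03 and 0.17 for KLHL24. In both genes the control and AII+EGF libraries overlapped. IRS2 was the member whose AII+EGF libraries (123, 125 and 122 FPM) were all below the EGF libraries (169, 132, 128 and 145 FPM) after 24 h, with a log2 fold change of -0.22 (95% confidence interval -0.51 to 0.07) and an FDR of 1.00. The exact two-sided permutation test gave p = 0.0571, the smallest that 4 against 3 libraries allow, as 1 of 10 such tests. Full separation of the groups always gives this value, so that the test adds nothing to it.

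The other genes of the route were described from lists of the PI3K-AKT branch, of FOXO partners and modifiers, of other FOXO targets and of genes induced through ERK. Of 25 tested PI3K-AKT genes after 6 h, 1 was higher and 2 were lower with EGF, against 5.97% of all genes that passed. With AII+EGF 1 was higher and 1 lower, against 6.10% (median log2 fold change -0.02 with EGF and -0.01 with AII+EGF). EGFR itself rose by 0.35 with EGF (FDR 0.0319) and by 0.41 with AII+EGF (FDR 0.0123). INPP5D, the lipid phosphatase SHIP1 that removes the PI3K product, had 51.3, 53.4, 35.6 and 34.7 FPM in control and 25.7, 27.2, 17.4 and 16.9 FPM with EGF. Its level fell by 1.01 with EGF (FDR 0.00705) and by 1.07 with AII+EGF (FDR 0.00500), both on the log2 scale. TSC1, a brake on mTORC1, fell by 0.23 with EGF (FDR 0.0393).

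Of 17 tested partners and modifiers of FOXO, 3 were higher and 1 lower with EGF, against 5.97% of all genes that passed. With AII+EGF 2 were higher and 0 lower, against 6.10% (median log2 fold change 0.06 with EGF and 0.05 with AII+EGF). The 14-3-3 genes YWHAZ (0.50 with EGF, 0.35 with AII+EGF, FDR 0.000373 and 0.00961) and YWHAG (0.30 and 0.28, FDR 0.0206 and 0.0312) rose in both groups. Their proteins hold phosphorylated FOXO in the cytoplasm. The kinase gene STK4 rose with EGF (0.24, FDR 0.0494), and the deacetylase gene SIRT2 fell (-0.37, FDR 0.0497), both at the edge of the threshold.

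Of 29 tested other FOXO targets, 2 were higher and 2 lower with EGF, against 5.97% of all genes that passed. With AII+EGF 3 were higher and 2 lower, against 6.10% (median log2 fold change 0.01 with EGF and 0.01 with AII+EGF). TXNIP, which binds thioredoxin and limits glucose uptake, had 49.3, 46.6, 37.7 and 38.9 FPM in control and 26.1, 28.2, 22.8 and 21.5 FPM with AII+EGF, without overlap. TXNIP fell by 0.70 with EGF (FDR 0.000597) and by 0.81 with AII+EGF (FDR 0.000112) on the log2 scale. RBL2, which encodes the pocket protein p130, fell by 0.39 and 0.47 (FDR 0.00167 and 0.000197). The cell cycle inhibitor gene CDKN1A rose by 0.39 and 0.45, the cyclin gene CCND1 by 0.56 in both groups, and TRIB1 by 0.46 with AII+EGF. CCND1 is known as a gene that FOXO factors repress, and CDKN1A as one that they activate. The part of FOXO in either change was not tested.

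Of 9 tested genes induced through ERK, 8 were higher with EGF and 8 with AII+EGF after 6 h. This compares with 5.97% and 6.10% of all genes that passed (median log2 fold change of the list 1.60 and 1.83). EGR1 differed by 4.48 with EGF and 4.64 with AII+EGF, beside -0.52 and -0.63 for FOXO4. The control libraries held 0 to 2 counts of ETV5 and the EGF libraries 43 to 82, so that its fitted fold change rests on a level near 0. After 24 h, of the genes of these 4 lists, EGR1 passed the test (2.53 with EGF, 2.95 with AII+EGF).

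**Figure D4:**
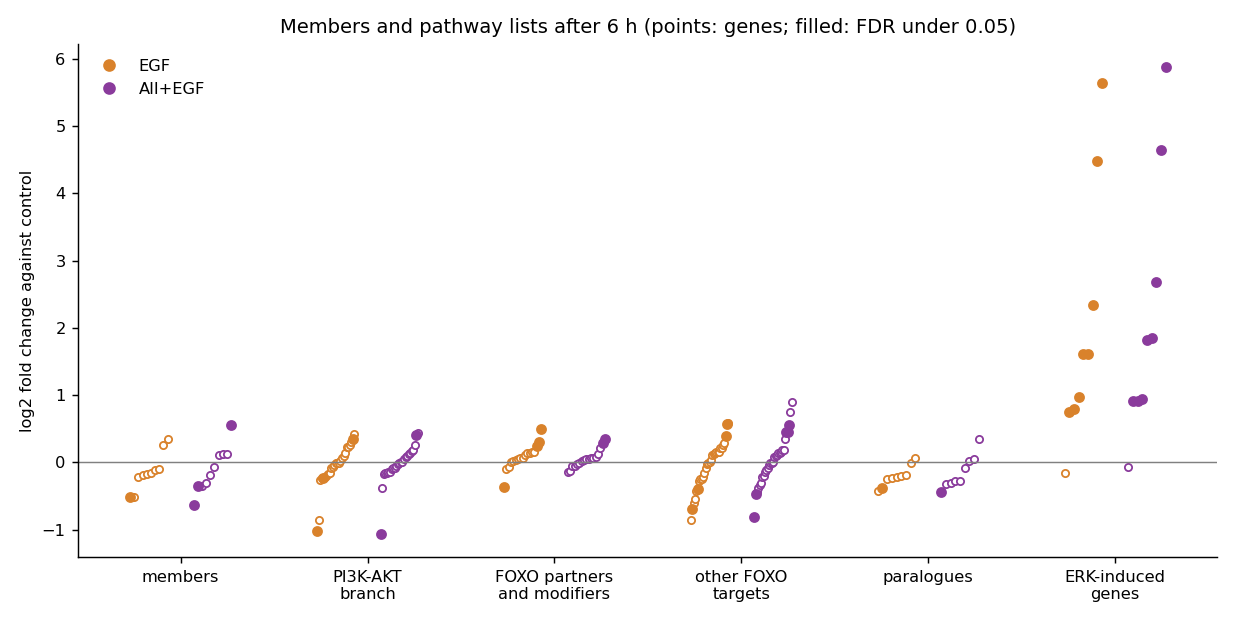
Log2 fold change against control after 6 h (vertical axis) for the 10 members and the tested genes of 5 lists, with EGF and AII+EGF side by side, points for genes and filled points for an FDR under 0.05. The members lie between -0.63 and 0.55 with AII+EGF, whereas EGR1 lies at 4.64; the points above it are ETV5, which had 0 to 2 counts per control library.

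Across the 16 libraries after 6 h, the mean standardised level of the 7 members that are no FOXO factors was followed most closely, of 12991 ranked genes, by EPHA4 (Pearson r 0.89), C6orf89 (0.88), PRSS23 (0.87), ZNF891 (0.87) and MARCH8 (0.86). Across the 15 libraries after 24 h the same genes had r of 0.45, 0.12, -0.13, 0.14 and -0.64. FOXO4 had r of 0.52 with that mean after 6 h, FOXO3 0.64 and FOXO1 -0.65. These are descriptions over libraries that share 4 conditions and their depth.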

How the data were processed

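RNA of HEK293 cells was depleted of ribosomal RNA and sequenced in read pairs. The authors deposited raw counts per gene, made, according to their methods and processing notes, with cutadapt 1.8.1, TopHat2 2.0.14 (hg19) and featureCounts 1.4.6; the series text names HISAT2 as the mapper instead, and 8 columns of the 24 h table carry a name part for filtering that is not explained. The labels give conditions but number no replicates, so that replicates are numbered in label order. The labels name 32 libraries, and AII+EGF replicate 2 after 24 h was not analysed here. No library was left unmapped otherwise, and no pair of replicates agreed within sampling noise (the lowest chi-square per gene of a pair was 1.95 at 6 h and 17.5 at 24 h).

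Each time point was fitted on its own, with its 4 conditions, by edgeR's quasi-likelihood method (version 4.0.16, R 4.3.3, TMM factors), after filterByExpr, which all 10 members passed. P-values were adjusted over all tested genes (Benjamini-Hochberg). A gene passed at an FDR under 0.05; it was called when its fold change was also above 1.5 and its mean above 5 FPM (in control for lower, in treated libraries for higher genes). Exact permutation tests used log2(FPM + 1). SE is the log2 fold change divided by the root of F. Alternatives were DESeq2 1.42.0, its size factors in edgeR, dropping filterByExpr, dropping the FPM and fold change filters, an FDR of 0.01, a library series block, protein-coding genes only and each library left out; leaving out the 2 libraries in which U1 genes took 55.6% and 57.2% of the counts was chosen after seeing the data. The procedure was tested on simulated data. Counting error limits PIK3IP1 and BCL6.

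The members and lists were chosen with earlier results of these data known. Beside the members, the genes named were those of the lists that passed the test in EGF or AII+EGF against control, with values for at most 8 per list, the 5 genes most alike over the 6 h libraries, and AGTR1 and EGR1 as checks. The plan had been to name only list genes that were also called. SESN1, IRS4, FOXO6, HBB, PTPRC and the HEK293 markers NEFL, VIM, PAX2 and KRT8, which did not pass, were named after their values were seen. FOXO1B and FOXO3B were named as copies of members. Sequences are from RefSeq windows (GRCh38.p14). Gene positions and exon lengths are from GENCODE on GRCh37, the build of hg19. The authors name an Ensembl release for their annotation, so that positions and counted exons may differ from these.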

Additional observations from a re-analysis of the deposited data

Results flagged for a closer look

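In 4 of 70 groups of 4 libraries, 1 library lay far from the other 3, which chance gives in about 1 of 20 groups (3.5 of 70). After 6 h, IRS2 had 302 FPM in AII replicate 3 against 231 to 234 FPM in the others (a gap of 0.956 of the range). SESN3 had 195 FPM in control replicate 1 against 243 to 247 FPM (0.913), and IRS1 had 19.98 FPM in AII+EGF replicate 2 against 23.1 to 23.6 FPM (0.874). FOXO3 had 236 FPM in EGF replicate 3 against 239 to 240 FPM (0.863), a small difference in a group that hardly spread. Without the SESN3 library, AII+EGF passed against control for SESN3 (FDR 0.0112), as it also did without EGF replicate 1, AII replicate 3 or AII replicate 4 (FDR 0.0322 to 0.0439). The part of these libraries in the other results is given by the fits that leave them out.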

How the results depend on the processing

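Of 41 single results, 29 kept their direction and their side of the threshold under every alternative run. Over 902 alternatives there were 850 such values, 27 that lost and 9 that gained the threshold, and 16 that changed sign. Most of the 41 had not passed in the main fit. Of those that had, SESN3 against AII kept the threshold throughout. FOXO4 with EGF lost it in 8 of 22 alternatives. With AII+EGF, FOXO4 lost it in 2, IRS1 in 6 and KLHL24 in 11. With EGF after 6 h, the number of members called was 0 and became 1 without the FPM and fold change filters, and 0 to 2 with each library left out (1 without EGF replicate 2, 2 without EGF replicate 3). With AII+EGF it was 1 and became 3 without these filters, 0 at an FDR under 0.01, and 0 to 2 with each library left out (0 without AII+EGF replicate 4, 2 without control replicate 2 or 4 or AII+EGF replicate 2). For AII+EGF against AII it was 0 and became 1 without the filters. The other counts of members called stayed at 0 under every alternative run. FOXO4 with EGF missed the threshold without the filter on low counts (FDR 0.0593). The results that changed sign were after 24 h, where none passed the test. KLHL24 with AII+EGF was 0.00578 without the filter on low counts, 0.070 with the library series block, 0.095 without the 2 libraries rich in U1 counts, and -0.20 to 0.13 with each library left out. Leaving out libraries gave -0.41 to 0.20 for PIK3IP1, -0.26 to 0.012 for FOXO1 and -0.020 to 0.25 for KLHL24 with EGF, and -0.069 to 0.021 for FOXO3 and -0.081 to 0.077 for IRS2 with AII+EGF. The causes were not tested. No paired analysis was possible because no label numbers the replicates; the series of library numbers served as the block instead, and its one change of sign is that of KLHL24 given above. Depth limits PIK3IP1 and BCL6, with at most 60 counts per library after 6 h.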

Other observations

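Several members have close relatives in the genome. Of 9 tested paralogues, 0 were higher and 1 was lower after 6 h in either EGF group in edgeR's test. This compares with 5.97% of all genes that passed with EGF and 6.10% with AII+EGF. The median log2 fold change of the paralogues was -0.21 with EGF and -0.27 with AII+EGF. CCNG1, the relative of CCNG2, had 301, 272, 295 and 269 FPM in control, 221, 197, 226 and 226 FPM with EGF and 193, 224, 221 and 202 FPM with AII+EGF. The treated libraries did not overlap control, and CCNG1 fell by 0.39 (SE 0.07, FDR 0.00226) and 0.44 (SE 0.08, FDR 0.000559) on the log2 scale. SESN1 stood at -0.24 with EGF (FDR 0.153) and -0.31 with AII+EGF (FDR 0.0615), beside -0.22 and -0.31 for SESN3. IRS4, an adaptor often described as abundant in HEK293 cells, was at 5.78 to 6.90 FPM in control.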
